A study of Mus musculus with 49 samples.

Results

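A set of 137 genes among the 20489 in the deposited tables, 0.669%, stayed near their starting level for the first 4 h of p53 activation in mouse embryonic stem cells and were high only later. The members were chosen from measured values of a time course in a line whose Trim24 carries a degron tag. In Trim24-expressing cells the mean log2 level at 2 h and at 4 h had to lie within 0.25 of the level at 0 h, the level at 12 h had to be at least 1.5 above it, and the mean log2 level at 12 h had to be at least 2. The levels of these cells at 0, 2, 4 and 12 h therefore describe the members and are given without a test. Which genes pass the rule depended strongly on the normalization, with counts in the closing section. The 8 h libraries of Trim24-expressing cells, the Trim24-degraded arm of the time course and the other experiments took no part in the choice.

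RNA-seq of TC-1 embryonic stem cells of strain 129S6/SvEvTac was deposited as 4 tables with 49 libraries in 16 groups. The question of the study was how Trim24, a TRIM family protein with a RING domain that meets p53 on chromatin, shapes the response to p53 activation. Doxorubicin at 1 µM, which damages DNA, was used to activate p53, and dTAG13 at 500 nM to degrade the tagged Trim24 protein. The time course held Trim24-degraded cells with activated p53 at 2, 4, 8 and 12 h, Trim24-expressing cells with activated p53 at the same times, and untreated Trim24-expressing cells at 0 h, with 3 libraries in each group. A separate experiment without doxorubicin held 3 libraries with Trim24 degraded for 4 h and 3 untreated. The RING-domain experiment held 4 libraries each, all at 4 h of p53 activation, of ligase-null cells, Trim24-degraded cells and Trim24-expressing cells. Wild-type cells were measured with p53 activated for 4 h and untreated, with 2 libraries each.

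Each engineered line grew from picked clones, and the ligase-null cells carry point mutations in the RING domain of the endogenous gene, so the mutation and the history of that line cannot be told apart. Their genotype label names the degron tag. In the time course doxorubicin and the degrader were given for the same hours, so length of activation and length of Trim24 loss changed together. Untreated cells of the time course were measured at 0 h only, and the medium was exchanged at treatment. Hours in culture and fresh medium therefore cannot be told apart from activation. Doxorubicin was the only activating agent, so p53 activation and other effects of the drug cannot be told apart. A treatment label of the untreated libraries in the experiment without doxorubicin names activated p53, while their titles name them untreated. They are used here as untreated. In these bulk samples more cells of a type and more RNA per cell cannot be told apart.

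Reads over genes ranged from 14422098 to 35185256 per library, with a median of 19520026. Levels are given as CPM (reads scaled to the effective library size), with no pseudocount added, and fold changes as log2 differences of the deposited values, whose prior count of 8 reads compresses changes of genes with few reads. Genes were called by limma where the adjusted p, taken over all genes tested, was under 0.01 and the log2 fold change reached 0.75 in either direction. The 10 embryonic stem cell markers were detected in every group, and their sum was lower late in activation, with 1086 to 1196 CPM in Trim24-degraded cells at 12 h against 4454 to 4740 CPM at 2 h, and 1072 to 1170 CPM in Trim24-expressing cells at 12 h against 5867 to 5968 CPM at 0 h. All 10 were lower in every later library in both pairs of groups. The 12 fibroblast or feeder markers summed to 52.3 to 55.7 CPM against 23.0 to 24.4 CPM, and to 53.9 to 67.5 CPM against 22.1 to 25.7 CPM, in the same pairs of groups. Of these 12, 6 were higher and 1 lower in the first pair and 5 higher and 1 lower in the second. Lum, Twist2 and Fap had 0 reads at 0 h. The part of these shifts in the results was not tested.

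Some of the members belong to a programme known from early mouse embryos. At the 2-cell stage the embryonic genome is switched on, and a small share of embryonic stem cells in culture passes at times into a similar state, marked by Zscan4, Tcstv, Usp17l and Tdpoz family genes and by transcripts of retroviral repeats. The homeobox factor Dux, listed as Duxf3 in the tables, can drive that state, and p53 is known to act on Dux. Many of these genes sit in tandem arrays of near-identical copies.

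Across the members the median log2 difference from 0 h in Trim24-expressing cells was −0.02 at 2 h, 0.06 at 4 h, 1.29 at 8 h and 2.23 at 12 h. At 12 h it ran over members from 1.501 to 6.12, with 47 members at 3 or more and 22 at 4 or more. The members summed to 974 to 983 CPM at 0 h, 2212 to 2435 CPM at 8 h and 5289 to 5418 CPM at 12 h. The choice leaves out most genes that were high at 12 h. Of 2034 genes that were at least 1.5 above 0 h and at least 2 in level at 12 h, the 137 members made 6.7%, while 689 were already at least 1.5 higher at 4 h and 1208 belonged to neither set. Katnal1 at 1.501, Tex11 at 1.51 and B4galt4 at 1.51 lay just inside the limit on the 12 h change, and Mblac2 at 1.498, Zfp9 at 1.49 and Pcnx2 at 1.49 lay just outside.

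**Figure D1:**
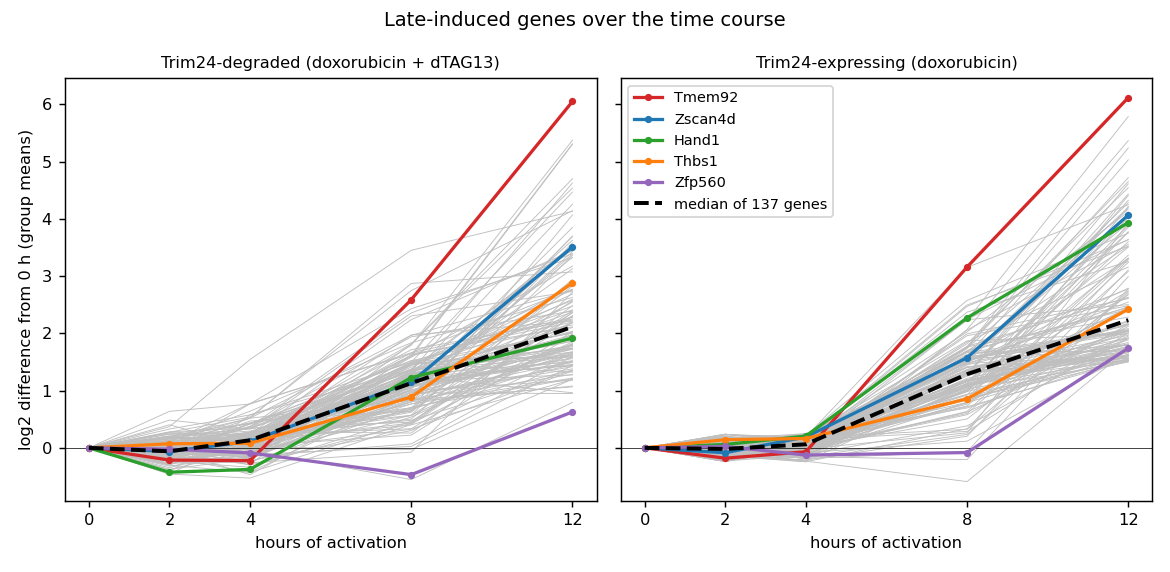
Log2 difference of each of the 137 members (grey lines, group means of 3 libraries) by hours of p53 activation, in Trim24-degraded cells (left) and Trim24-expressing cells (right), both measured from untreated cells at 0 h, with the median dashed and 5 members in colour. Trim24-expressing medians lie at −0.02, 0.06, 1.29 and 2.23 at 2, 4, 8 and 12 h.

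The members with the largest differences at 12 h were Tmem92 at 6.12, AF067061 at 5.79, Pramef25 at 5.36, Tcstv3 at 5.24, BC061212 at 5.03, the olfactory receptor gene Olfr374 at 4.72, the deubiquitinase gene Usp17ld at 4.65, Tdpoz9 at 4.61, 3110040M04Rik at 4.54, the growth factor gene Fgf1 at 4.43, Spopfm3 at 4.41 and Ubtfl1 at 4.32. Of a list of 21 genes of the 2-cell-like state, 17 were in the table and 7 were members: Zscan4d, Zscan4f, Tcstv3, Usp17lc, Zfp352, Spz1 and Tdpoz4. The median difference at 12 h over the 17 genes was 4.20. Single members came from lists for extracellular matrix (Thbs1), germline (Tex11), trophoblast (Hand1) and neural genes (Sox1). Usp17l genes encode deubiquitinases, Tdpoz and Spopfm3 proteins with a POZ domain, Pramef25 a PRAME family protein, and Ubtfl1 a relative of a ribosomal RNA transcription factor.

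Tmem92, a gene for a predicted membrane protein on chromosome 11 of GRCm38 from 94777217 to 94782703, had 1.94, 2.75 and 2.45 CPM at 0 h, 2.27, 1.77 and 2.11 CPM at 2 h, 2.03, 2.47 and 2.23 CPM at 4 h, 24.6, 22.2 and 25.03 CPM at 8 h and 193, 189 and 182 CPM at 12 h in Trim24-expressing cells. In Trim24-degraded cells it had 1.94, 2.21 and 1.83 CPM at 2 h, 1.78, 2.22 and 1.93 CPM at 4 h, 14.7, 14.4 and 19.2 CPM at 8 h and 163, 187 and 190 CPM at 12 h. The libraries of the first 4 h overlapped, and every 8 h and 12 h library lay above them.

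Zscan4d and Zscan4f encode zinc finger proteins with a SCAN domain that act on telomeres and mark the 2-cell-like state. Zscan4d had 12.3, 11.2 and 14.1 CPM at 0 h, 11.4, 12.2 and 11.8 CPM at 2 h, 14.4, 13.9 and 14.7 CPM at 4 h, 39.2, 34.9 and 39.9 CPM at 8 h and 236, 204 and 207 CPM at 12 h in Trim24-expressing cells. In Trim24-degraded cells it had 12.8, 11.4 and 11.6 CPM at 2 h, 12.6, 14.7 and 13.4 CPM at 4 h, 26.5, 25.7 and 32.7 CPM at 8 h and 138, 144 and 157 CPM at 12 h. Levels at 8 h and 12 h were lower in every Trim24-degraded library than in any Trim24-expressing library. Zscan4-ps1, Zscan4d, Zscan4f and Zscan4-ps2 are neighbours, between positions 11065139 and 11519111 of chromosome 7 in GRCm38. Of the windows of 50 bases in their exons, the share found in other genes was 49.6% for Zscan4d, 86.8% for Zscan4f, 87.6% for Zscan4-ps2 and 48.4% for Zscan4-ps1. Reads that matched several places had been given to a random one, so the split of reads between these copies is uncertain.

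The stretches in front of 4 such members show how alike the neighbours are. They are RefSeq sequence of build GRCm38.p6, given 5′ to 3′ on the gene's strand and ending at a TATAAA, the core of a TATA box, in capitals. They lie at chr7:11166208-11166398 (minus strand) for Zscan4d, chr7:11397665-11397889 (plus strand) for Zscan4f, chr7:103416446-103416613 (plus strand) for Usp17lc and chr7:103252610-103252755 (minus strand) for Usp17ld.
Zscan4d: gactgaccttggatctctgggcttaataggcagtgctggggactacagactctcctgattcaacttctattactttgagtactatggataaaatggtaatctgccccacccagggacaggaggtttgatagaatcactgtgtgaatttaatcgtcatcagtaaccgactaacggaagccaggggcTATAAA
Zscan4f: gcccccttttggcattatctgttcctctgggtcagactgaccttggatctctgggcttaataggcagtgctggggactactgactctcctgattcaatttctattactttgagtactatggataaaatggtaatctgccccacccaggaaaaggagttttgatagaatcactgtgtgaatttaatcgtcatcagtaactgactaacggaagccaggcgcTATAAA
Usp17lc: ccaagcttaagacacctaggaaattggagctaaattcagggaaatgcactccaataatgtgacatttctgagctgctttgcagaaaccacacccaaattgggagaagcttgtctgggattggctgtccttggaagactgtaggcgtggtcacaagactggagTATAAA
Usp17ld: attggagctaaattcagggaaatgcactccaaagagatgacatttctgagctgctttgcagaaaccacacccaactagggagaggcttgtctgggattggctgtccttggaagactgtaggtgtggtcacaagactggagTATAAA
Compared back from the TATAAA, Zscan4d and Zscan4f were 96.3% identical over 191 bases, with 7 edits, and Usp17lc and Usp17ld were 94.5% identical over 146 bases, with 8 edits. Zscan4d and Usp17lc were 46.4% identical over 168 bases. The TATAAA began 65 bases before the RefSeq start of Zscan4d, 31 before that of Zscan4f, 88 before that of Usp17lc and 110 before that of Usp17ld. TATAAA on the gene's strand stood in 8.12% of all 27025 RefSeq promoters, searched over the 250 bases before each start. The Zscan4 windows also held TGANTCA, here as tgattca, a pattern searched on both strands and found in 6.87% of all promoters. The Usp17l windows held CCAAT, found in 34.46% on either strand. A match is a description of the letters only. Promoters were matched for 108 of 137 members (78.8%), too few for a share of members with a motif.

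The other large members shared this shape. Tcstv3, AF067061 and D13Ertd608e lie together on chromosome 13 between 119836006 and 120318178. Tcstv3 had 2.79, 2.06 and 3.39 CPM at 0 h, 11.9, 9.33 and 9.13 CPM at 8 h and 123, 114 and 108 CPM at 12 h with Trim24 expressed, and 68.0, 80.2 and 77.3 CPM at 12 h with Trim24 degraded. AF067061 had 106, 119 and 120 CPM in Trim24-degraded cells at 12 h, against 177, 159 and 149 CPM in Trim24-expressing cells. The degraded libraries lay below the expressing ones for both genes. Pramef25 had 39.6, 47.5 and 51.8 CPM in Trim24-degraded cells at 12 h, against 50.2, 51.6 and 42.2 CPM in Trim24-expressing cells, and these groups overlapped. Kdm4d, which encodes a histone demethylase, was at 0.0584 to 0.245 CPM at 0 h, where a library holds few reads of it, and at 8.97, 7.99 and 8.27 CPM at 12 h with Trim24 expressed.

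**Figure D2:**
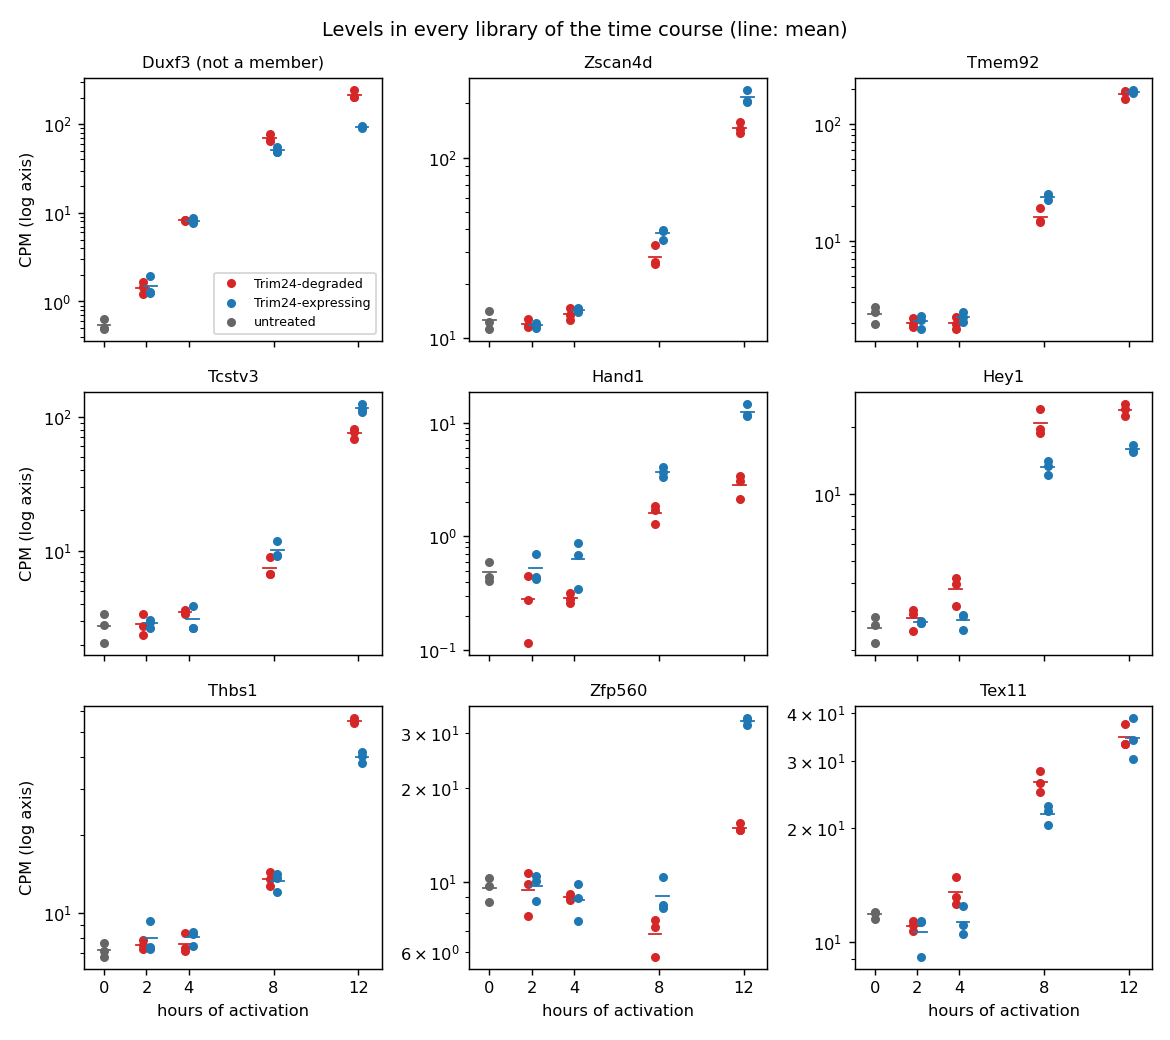
CPM per library (points, log axis) with the group mean (line) by hours of p53 activation for 8 members and for Duxf3, which is no member, in Trim24-degraded and Trim24-expressing cells. Duxf3 is above its 0 h level by 4 h, where Zscan4d and Tmem92 are still at 12.6 to 14.7 CPM and 1.78 to 2.47 CPM in all libraries.

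Duxf3 itself failed the rule because it was higher early. In Trim24-expressing cells it had 0.498, 0.491 and 0.642 CPM at 0 h, 1.94, 1.26 and 1.23 CPM at 2 h, 8.11, 8.68 and 7.76 CPM at 4 h, 48.0, 48.6 and 56.0 CPM at 8 h and 90.4, 94.4 and 93.3 CPM at 12 h. In Trim24-degraded cells it had 8.29, 8.08 and 8.35 CPM at 4 h, 64.5, 66.2 and 76.8 CPM at 8 h and 204, 241 and 200 CPM at 12 h. At 12 h Duxf3 was higher in every Trim24-degraded library than in any Trim24-expressing library and Zscan4d was lower in every one.

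Not all members were of this kind, and they differed in how much of the 12 h difference was present at 8 h. In Trim24-expressing cells 22 members had under 25% of it, 39 had 25% to 50%, 52 had 50% to 75% and 24 had 75% or more. Among the latest, Zfp352, a zinc finger gene of early embryos, had 6.7% and Hdc, which encodes the histamine-producing enzyme histidine decarboxylase, had 7.2%. Usp9y, the dynein gene Dnah7c, the zinc finger gene Zfp560 and Ccser1 were no higher at 8 h than at 0 h. Zfp352 had 18.9, 18.1 and 17.1 CPM at 12 h, against 1.18, 0.801 and 1.36 CPM at 8 h. Hdc had 21.3, 23.9 and 19.7 CPM at 12 h, against 8.18, 6.27 and 7.57 CPM at 8 h. For both genes every 12 h library lay above every 8 h library.

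At the early end, Ccdc96 had 99.0% of its 12 h difference at 8 h, the transporter gene Slc6a12 had 93.9%, Zfp667 had 93.2%, Hey1 had 89.4% and B4galt4 had 89.2%. Hey1, a bHLH repressor known as a target of Notch signalling, had 15.4, 15.6 and 16.6 CPM at 12 h, against 13.3, 12.1 and 14.1 CPM at 8 h. Ncoa2, a coactivator of nuclear receptors, and Sel1l, part of protein quality control in the endoplasmic reticulum, were among the members highest in CPM at 12 h. Ncoa2 had 173, 224 and 194 CPM at 12 h, against 38.8, 43.5 and 37.8 CPM at 0 h. Sel1l had 188, 198 and 199 CPM at 12 h, against 54.4, 51.8 and 47.8 CPM at 0 h. Tfpi, an inhibitor of tissue factor in blood clotting, was the highest, with 409, 409 and 398 CPM at 12 h against 143, 123 and 145 CPM at 0 h. Per kilobase of exon the order of levels at 12 h was Tcstv3 (148 CPM per kb), Zscan4f (127), AF067061 (115), Zscan4-ps2 (107), Zscan4d (94.8), Tmem92 (86.0), Zscan4-ps1 (75.1) and Tfpi (74.2).

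The Trim24-degraded arm of the time course gave libraries that the rule had not used. Of the 137 members, 136 rose at 12 h against 2 h there and 110 rose at 8 h against 2 h. In limma 0 members were called lower in either comparison, as in limma-voom, and at an unadjusted p under 0.05 it was 0 at 12 h and 1 at 8 h. After quantile normalization, 74 members were called higher and 2 lower at 8 h, with 73 of the 110 among them. Among all genes tested, 28.0% were called higher and 19.9% lower at 12 h, and 24.0% higher and 16.2% lower at 8 h. The median log2 fold change over the members was 2.15 at 12 h, against 0.04 over all genes, and 1.14 at 8 h, against 0.02. The largest adjusted p of a called member was 0.00012 at 12 h and 0.0019 at 8 h (limma). All 137 members had every 12 h library above every 2 h library, against 42.3% of all genes, and 123 had every 8 h library above every 2 h library, against 38.8%. In both comparisons 17 members passed the filter on low values only through the later group. With each library centred on its median the median of all genes became −0.16 at 12 h and −0.13 at 8 h.

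Among the members with the largest fold changes at 12 h against 2 h were Tmem92 at 6.26, 3110040M04Rik at 5.52, AF067061 at 5.52, Pramef25 at 5.22 and BC061212 at 4.82. Of these, 3110040M04Rik and BC061212 had means of only 0.0712 and 0.152 CPM at 2 h. Both passed the filter on low values only through the 12 h group, where they were high. Zscan4d rose by 3.57 (standard error 0.07, adjusted p = 5.9e-19 from limma, n = 3 libraries each). All 17 measured genes of the 2-cell-like list rose at 12 h, and 14 rose at 8 h, with medians of 3.64 and 1.15. Zfp560 was the member not called at 12 h, with 14.6, 14.7 and 15.5 CPM at 12 h against 9.86, 10.7 and 7.81 CPM at 2 h. Its fold change of 0.65 lay under the limit, though the groups did not overlap.

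At 8 h against 2 h in Trim24-degraded cells the largest fold changes were 3.08 for 5330417C22Rik, 2.80 for Tmem92, 2.74 for Hey1, 2.49 for Vav3 and 2.47 for Slc9a2, a sodium and proton exchanger. Hey1 had 19.5, 18.6 and 24.0 CPM at 8 h, against 2.44, 2.90 and 3.03 CPM at 2 h. The 27 members not called at 8 h included Zfp560 at −0.44, Usp9y at −0.28, Hdc at 0.10 and Zfp352 at 0.15, all late in Trim24-expressing cells too. Hdc had 7.11, 5.60 and 7.97 CPM at 8 h, against 6.32, 7.03 and 5.71 CPM at 2 h, and these groups overlapped.

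Between 8 h and 12 h of the Trim24-degraded arm, 81 of 137 members rose and 0 fell, where 4.91% of all genes were called higher and 1.47% lower. Without adjustment 1 member was lower at a p under 0.05, and limma-voom on the recovered reads also called 0 lower. The median member fold change was 0.89, against 0.01 over all genes, and the largest adjusted p of a called member was 1.5e-05 (limma). In 126 members every 12 h library lay above every 8 h library, against 26.1% of all genes. AF067061 rose by 3.71, Pramef25 by 3.69, 3110040M04Rik by 3.58, Tmem92 by 3.46 and Tdpoz9 by 3.39, and 15 of the 17 genes of the 2-cell-like list rose. Hdc rose by 1.41 and Zfp352 by 2.79 in this interval. Zfp667 at −0.28, Slc6a12 at −0.17, Kctd9 at −0.01, Katnal1 at 0.11 and Hey1 at 0.20 were not called. Of the 689 genes that were already high at 4 h, 39 rose in the same interval.

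At 4 h against 2 h without Trim24, 3 of the 130 members tested rose and 0 fell, where 7.50% of all genes were called higher and 2.50% lower, and 119 members passed the filter in both groups. The 3 were 5330417C22Rik, Sp140, a nuclear body protein of immune cells, and Vav3. 5330417C22Rik had 1.52, 1.74 and 2.12 CPM at 4 h, against 0.610, 0.465 and 0.714 CPM at 2 h, and rose by 1.17 on the log2 scale (standard error 0.19; limma adjusted p = 1.5e-05). Sp140 rose by 1.00 and Vav3 by 0.83. The member median was 0.17 against −0.00 over all genes, and −0.00 against −0.02 after quantile normalization. In 38 members every 4 h library lay above every 2 h library, against 24.9% of all genes tested. At an unadjusted p under 0.05, 32 members were higher and 1 lower, against 3948 higher and 4158 lower among all 16064 genes tested. Limma-voom called 0 members lower. Of the 689 genes already high at 4 h in Trim24-expressing cells, 592 rose here.

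**Figure D3:**
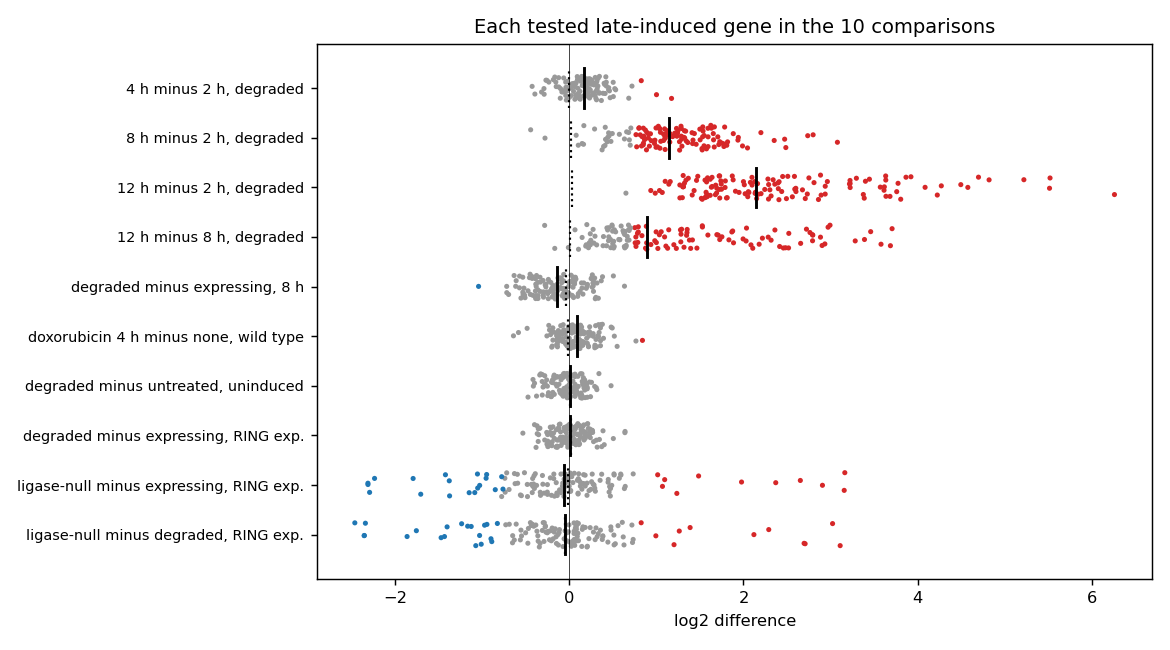
Log2 fold change of every tested member (points) in each of the 10 comparisons, red where called higher, blue where called lower and grey otherwise, with the member median (solid line) and the median of all genes tested (dotted line). The members lie above the all-gene median at 8 h and 12 h without Trim24 (1.14 and 2.15) and spread to both sides in ligase-null cells.

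Loss of Trim24 at 8 h of p53 activation moved few members past the limits. Hand1, a bHLH factor of trophoblast giant cells and the heart, was the only one of 137 called, and it was lower. It had 1.70, 1.30 and 1.86 CPM in Trim24-degraded cells, against 3.69, 3.30 and 4.09 CPM in Trim24-expressing cells, and the groups did not overlap. It fell by 1.04 on the log2 scale (standard error 0.17; limma adjusted p = 1.1e-07, n = 3 each). Among all genes tested 0.448% were called lower and 1.14% higher. At an unadjusted p under 0.05, 41 members were lower and 10 higher, against 2678 lower and 1279 higher among all 17424 genes tested. Limma-voom called 0 members higher and 3 lower. The count of lower members was 2, 3 and 4 without Trim24-degraded replicate 1, 2 or 3 and 3 without Trim24-expressing replicate 2. At an adjusted p under 0.01 with no limit on size, 18 members were lower and 1, Hey1, was higher. No share over all genes was counted at that limit. At 12 h, where the rule had picked genes high in Trim24-expressing cells, Hand1 is described without a test. It had 3.04, 3.37 and 2.12 CPM in Trim24-degraded cells and 11.4, 14.5 and 11.6 CPM in Trim24-expressing cells.

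The 18 included Fndc8 at −0.72, Fgf1 at −0.72, AF067061 at −0.63, Zscan4-ps2 at −0.57, Tmem92 at −0.57, Zscan4f at −0.53, Nradd at −0.52 and Zscan4d at −0.43, none past the limit on size. Zscan4f had 25.6, 26.5 and 29.7 CPM in Trim24-degraded cells at 8 h, against 42.2, 35.7 and 40.7 CPM in Trim24-expressing cells. Fgf1 had 2.65, 3.84 and 3.90 CPM in Trim24-degraded cells, against 6.36, 5.42 and 5.80 CPM in Trim24-expressing cells. Neither gene's groups overlapped. Hey1 had 19.5, 18.6 and 24.0 CPM in Trim24-degraded cells, against 13.3, 12.1 and 14.1 CPM in Trim24-expressing cells, a fold change of 0.63. Over the members the median was −0.14, with 95 of 137 below 0, against −0.04 over all genes. Every degraded library lay below every expressing one in 39 members, against 17.0% of all genes, and above in 13, against 8.18%. Duxf3 differed by 0.44 (adjusted p = 2.8e-05 from limma), under the limit on size.

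At 12 h the difference between Trim24-degraded and Trim24-expressing cells is a description, because the rule picked genes that were high in the expressing libraries of that time. Its median over members was −0.24, with 105 of 137 below 0, and −0.05 over all genes that met the level limit. By group means 29 members were at least 0.75 lower with Trim24 degraded and 2 at least 0.75 higher, where 1.19% of all 20489 genes were that much lower and 2.40% that much higher. Hand1 at −2.02, Apol7e at −1.47, Olfr787 at −1.47, Cpb2 at −1.26, Spesp1 at −1.24, Zfp352 at −1.21, Zfp560 at −1.11 and Fgf1 at −1.07 were the lowest. Adamts1, a metalloprotease gene, was the highest at 1.44, with 22.9, 26.0 and 21.3 CPM in Trim24-degraded cells and 9.40, 6.89 and 9.12 CPM in Trim24-expressing cells. 3110040M04Rik at 0.83, the neural factor gene Sox1 at 0.72, Hey1 at 0.57 and Thbs1 at 0.46 followed. The members as a whole summed to 4261 to 4591 CPM in Trim24-degraded cells and 5289 to 5418 CPM in Trim24-expressing cells at 12 h. At 8 h they summed to 2011 to 2283 CPM in Trim24-degraded cells and 2212 to 2435 CPM in Trim24-expressing cells, and these ranges overlapped.

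In wild-type cells at 4 h of activation, a time at which the rule kept the members near their 0 h level in the degron line, 1 of 137 was called higher and 0 lower, where 7.99% of all genes were called higher and 2.27% lower. Without adjustment 14 members were higher and 4 lower at a p under 0.05, against 3581 higher and 3648 lower among all 16448 genes tested. Limma-voom called 1 member higher and 0 lower. The gene was 5330417C22Rik, with 1.01 and 1.32 CPM in activated cells against 0.496 and 0.480 CPM in untreated cells, a fold change of 0.84 (adjusted p = 0.0010 from limma, n = 2 each). It was lost when any 1 of the 4 libraries was left out. The extracellular matrix gene Thbs1 differed by −0.58, with 9.37 and 10.4 CPM in activated cells against 15.0 and 14.9 CPM in untreated cells. The member median was 0.08 against −0.02 over all genes, and −0.09 against −0.02 after quantile normalization, while 625 of 688 tested genes of the early set rose.

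The 2-cell-like genes did not start from one level in all experiments. Zscan4d had 66.2 and 59.0 CPM in activated wild-type cells and 59.6 and 54.4 CPM in untreated ones, against 11.2 to 14.1 CPM in the untreated degron line of the time course. The tables were normalized separately and the cells differ in line and experiment, so these levels stand side by side without a test. The 17 genes of the list summed to 276 to 303 CPM in untreated wild-type cells and to 64.1 to 77.7 CPM at 0 h of the time course. At 4 h of activation they summed to 161 to 184 CPM in Trim24-expressing cells of the RING-domain experiment and to 83.4 to 88.3 CPM in those of the time course, which carry the same genotype label. All members together summed to 1789 to 1879 CPM in untreated cells of the experiment without doxorubicin and to 974 to 983 CPM in those of the time course, again under 1 genotype label.

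Without doxorubicin, loss of Trim24 for 4 h changed 0 of the 127 members tested, where limma called 0.0781% of all genes higher and 0% lower. Longer loss was not measured there. Of the members, at an unadjusted p under 0.05, 3 were higher and 5 lower, against 681 higher and 518 lower among all 15360 genes tested. Limma-voom on the recovered reads also called 0 members. The member median was 0.00. Summed over members, Trim24-degraded cells had 1851 to 1864 CPM and untreated cells 1789 to 1879 CPM, and these ranges overlapped. Thbs1, at −0.30, did not pass (adjusted p = 0.09 from limma).

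In the RING-domain experiment all groups had p53 activated for 4 h. Loss of Trim24 changed 0 of 134 members, where the calls among all genes were 1.01% higher and 0.135% lower. Without adjustment, at a p under 0.05, 11 members were higher and 9 lower, against 3462 higher and 1964 lower among all 16313 genes tested. Limma-voom called 0 members. Without Trim24-degraded replicate 5 or Trim24-expressing replicate 7, 1 member was called higher, and without Trim24-expressing replicate 4, 1 was called lower. At an adjusted p under 0.01 without the limit on size, Hey1 at 0.64, Cpt2, a mitochondrial enzyme of fatty acid oxidation, at 0.35, and Alas1, an enzyme of haem synthesis, at 0.24 were higher. Hey1 had 4.56, 5.52, 5.73 and 3.94 CPM in Trim24-degraded cells, against 3.15, 2.67, 3.01 and 3.22 CPM in Trim24-expressing cells (standard error 0.13, adjusted p = 0.00036 from limma). Those groups did not overlap, as at 8 h of the time course.

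Ligase-null cells differed more from the degron line. Against Trim24-expressing cells 11 of 135 members were higher and 19 lower, where 4.67% of all genes were called higher and 2.28% lower. The Zscan4 genes, Tmem92 and other genes known from the 2-cell-like state were lower, and Hdc, Cemip, Thbs1, Il33 and Tmprss2 were among those that were higher. The member median was −0.06 against −0.02 over all genes, so the members moved to both sides. Of the 135 tested, 9 passed the filter on low values only through the Trim24-expressing group. All ligase-null libraries lay above all Trim24-expressing ones in 28 members, against 14.5% of all genes, and below in 29, against 18.6%. The largest adjusted p was 1.0e-04 among higher members and 0.0012 among lower ones (limma).

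Zscan4d had 7.55, 7.01, 5.10 and 6.32 CPM in ligase-null cells and 39.9, 36.5, 36.7 and 35.4 CPM in Trim24-degraded cells, against 33.2, 34.7, 32.3 and 31.6 CPM in Trim24-expressing cells. Ligase-null libraries lay far below both other groups, with a fold change of −2.29 against Trim24-expressing and −2.46 against Trim24-degraded cells. Zscan4-ps1 fell by 2.31, Zscan4f by 2.31, Zscan4-ps2 by 2.24 and Tmem92 by 1.79 against Trim24-expressing cells. Tmem92 had 1.49, 1.56, 1.00 and 1.65 CPM in ligase-null cells and 5.71, 6.95, 5.95 and 5.69 CPM in Trim24-degraded cells, against 5.22, 6.27, 5.40 and 6.20 CPM in Trim24-expressing cells. Tex11, an X-linked gene of meiosis, had 4.71, 4.05, 4.45 and 5.14 CPM in ligase-null cells and 15.9, 16.2, 16.2 and 16.9 CPM in Trim24-degraded cells, against 16.02, 16.001, 15.95 and 14.97 CPM in Trim24-expressing cells, and fell by 1.71 against Trim24-expressing cells. No library of these genes overlapped between ligase-null cells and either other group.

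Pramef25 fell by 1.42, AF067061 by 1.38, Tcstv3 by 1.38, Usp17ld by 1.15 and Usp17lc by 1.03 in the same comparison. The remaining lower members were Ubtfl1, Wls, a carrier of Wnt proteins, Tle7, Lgals4, D13Ertd608e, Spesp1, Trpv2 and 0610040J01Rik. Of the 17 genes of the 2-cell-like list 11 were lower against Trim24-expressing and 12 against Trim24-degraded cells, and 0 higher. The list summed to 39.9 to 47.7 CPM in ligase-null cells and 161 to 184 CPM in Trim24-expressing cells. Duxf3 had 5.17, 5.87, 6.05 and 5.89 CPM in ligase-null cells and 13.9, 12.4, 14.5 and 12.0 CPM in Trim24-degraded cells, against 11.5, 10.02, 11.8 and 10.2 CPM in Trim24-expressing cells, and fell by 0.88 against Trim24-expressing cells (adjusted p = 2.2e-08 from limma).

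Among the higher members, Hdc had 23.1, 22.2, 20.4 and 20.98 CPM in ligase-null cells and 2.11, 2.22, 2.15 and 2.27 CPM in Trim24-degraded cells, against 2.22, 1.99, 2.55 and 1.70 CPM in Trim24-expressing cells. It rose by 3.16 against Trim24-expressing and 3.11 against Trim24-degraded cells. Cemip, which takes part in the breakdown of hyaluronan, had 26.8, 22.7, 24.1 and 21.4 CPM in ligase-null cells, against 2.58, 2.63, 1.77 and 2.46 CPM in Trim24-expressing cells, and rose by 3.16. Thbs1, a matrix glycoprotein gene, had 15.8, 16.1, 14.7 and 13.1 CPM in ligase-null cells, against 1.86, 1.85, 1.56 and 1.46 CPM in Trim24-expressing cells, and rose by 2.91. The ligase-null and Trim24-expressing libraries did not overlap for any of the 3 genes. The cytokine gene Il33 rose by 2.65, the protease gene Tmprss2 by 2.37, the actin-linked oxidase gene Mical2 by 1.98, the collagen hydroxylase gene P4ha2 by 1.48, Galnt3, which starts O-linked glycans, by 1.23, Tfpi by 1.10, Frmpd1 by 1.07 and 5330417C22Rik by 1.01. Tfpi had 249, 251, 232 and 238 CPM in ligase-null cells, against 116, 120, 111 and 107 CPM in Trim24-expressing cells.

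Levels at least this high were also seen outside ligase-null cells for some of these members. In the experiment without doxorubicin, every untreated Trim24-expressing library lay above every ligase-null library for 9 of the 11 higher members. The exceptions were Galnt3 and 5330417C22Rik. The share over all genes was not counted, so the 9 of 11 describes these members only. Hdc had 50.5, 47.5 and 47.1 CPM in those untreated libraries, Cemip had 108.5, 107.3 and 111.6 CPM, and Thbs1 had 27.0, 23.9 and 24.5 CPM. At 0 h of the time course, untreated cells with the same genotype label had 6.58, 6.57 and 6.95 CPM of Hdc, 6.63, 6.23 and 6.95 CPM of Cemip and 7.63, 7.11 and 6.77 CPM of Thbs1. For the lower members, Zscan4d had 14.4, 13.9 and 14.7 CPM in Trim24-expressing cells at 4 h of the time course, below the 31.6 to 34.7 CPM of the same group in the RING-domain experiment and above the 5.10 to 7.55 CPM of ligase-null cells. The tables were normalized separately, so these values stand side by side without a test, and their part in the ligase-null differences was not tested.

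**Figure D4:**
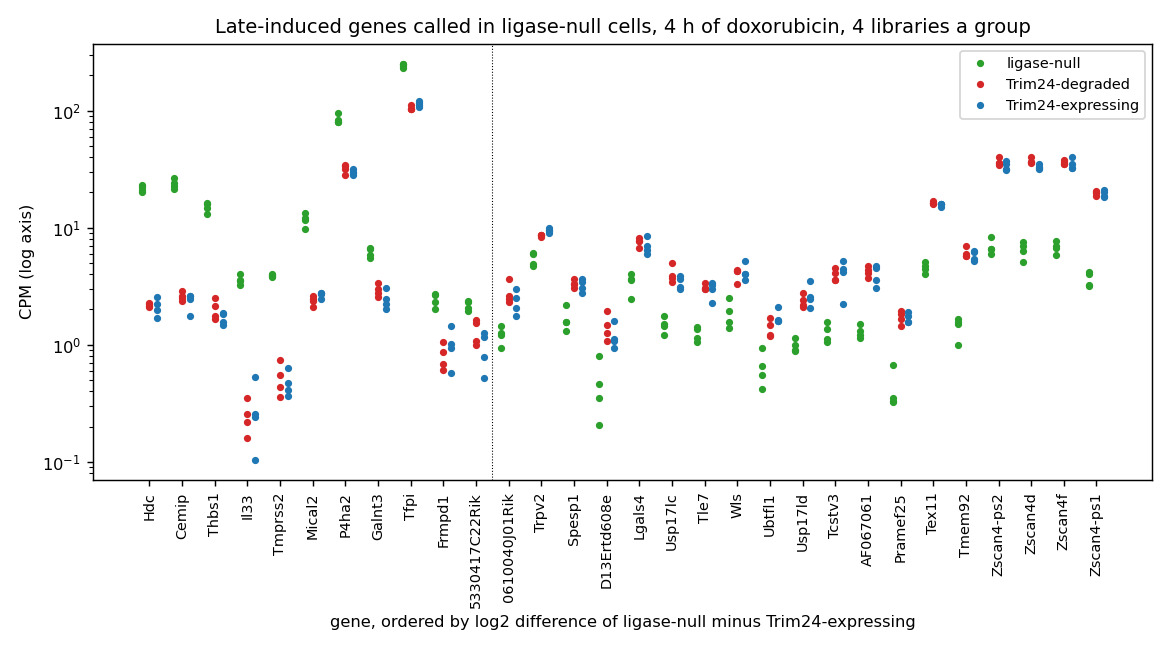
CPM per library (points, log axis) of the 30 members called between ligase-null and Trim24-expressing cells, in ligase-null, Trim24-degraded and Trim24-expressing cells at 4 h of activation. Zscan4d lies at 5.10 to 7.55 CPM in ligase-null cells and 31.6 to 39.9 CPM in both other groups, and Hdc at 20.4 to 23.1 CPM against 1.70 to 2.55 CPM.

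Against Trim24-degraded cells 11 of 135 members were higher in ligase-null cells and 20 lower, where 4.83% of all genes were called higher and 1.85% lower. Of the 135, 3 passed the filter on low values only through the ligase-null group and 8 only through the Trim24-degraded group. With the stricter filter 28 of the 31 called members kept their call, and Zfp352, B020004J07Rik and Hand1 lost it. Of the members called, 10 higher and 18 lower were called against both groups, which share the ligase-null libraries. Hand1 was called higher against Trim24-degraded cells only, at 0.83, but its groups overlapped. The fibroblast or feeder markers summed to 17.5 to 19.8 CPM in ligase-null and 29.7 to 32.9 CPM in Trim24-expressing cells, with 1 of 12 higher and 3 lower in every library. The 10 embryonic stem cell markers summed to 2813 to 3201 CPM in ligase-null and 2865 to 3202 CPM in Trim24-expressing cells. Of 37 extracellular matrix genes tested 14 were called higher and 0 lower, and of 20 trophoblast genes 6 were higher and 0 lower. Among all genes 4.67% were called higher and 2.28% lower against Trim24-expressing cells, and 4.83% and 1.85% against Trim24-degraded cells. The primitive endoderm list summed to 4446 to 5037 CPM in ligase-null and 1142 to 1293 CPM in Trim24-expressing cells. The trophoblast list summed to 340 to 382 CPM against 148 to 160 CPM in the same groups. The germline list had a lower sum, at 619 to 705 CPM against 817 to 900 CPM, and so had the neuronal list, at 462 to 517 CPM against 589 to 646 CPM. A sum follows its most abundant genes and does not give the number of listed genes that were lower. Summed over all members, ligase-null cells had 1173 to 1260 CPM, Trim24-degraded cells 1071 to 1101 CPM and Trim24-expressing cells 1024 to 1094 CPM.

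Position and sequence copies of the members are a description, with no share over all genes beside them. Of the 137, 133 were found in a GENCODE M21 annotation of GRCm38. All of these were protein-coding there, but the authors had kept protein-coding genes only. Within 1 Mb of another member lay 38 members, in 17 groups, among them Stim1, Usp17ld and Usp17lc on chromosome 7 between 102267806 and 103419880. At least 10% of the 50-base windows of 23 members and at least 50% of those of 8 members occurred in other genes. The 8 were BC061212 at 100%, 3110040M04Rik at 95.2%, D13Ertd608e at 89.6%, Zscan4-ps2 at 87.6%, Zscan4f at 86.8%, Apol7e at 71.8%, Pramef25 at 63.5% and Usp17ld at 51.1%, and their values may hold reads of their copies. For Tmem92 the share was 1.93%. The members spanned a median of 37.9 kb in the genome, against 22.5 kb for the genes already high at 4 h and 18.6 kb for all genes, with median exon lengths of 4732, 4074 and 3728 bases in that order. No test was made of these lengths. Counting did not use strand, so a gene and an antisense partner cannot be told apart.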

How the data were processed

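RNA-seq of embryonic stem cells was analysed from 4 tables. The authors aligned reads to mm10 with STAR, kept a random one of the places of a multiply matching read, and counted protein-coding genes with featureCounts. The authors then applied the TMM scaling of edgeR and deposited log2 CPM, to which a prior count of 8 had been added. Every column was used. Reads were recovered from the deposited log2 values: within a tolerance of 0.01, 100% came out whole. Reads per library ranged from 14422098 to 35185256, which leaves genes under 1 CPM with few reads, and counting error is all that read counts cover.

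The members are the 137 genes that pass the limits given above on group means of the deposited log2 values. The members and the gene lists were chosen with earlier results of these data known. Groups were compared within a table in R 4.3.3 with limma 3.58.1 (lmFit, then eBayes with trend and robust), with the 2 groups of a comparison in the fit. Limma was used because the deposited values are log2, while the study itself fitted a count model. To be tested, a gene had to exceed the floor of −1.48 by 0.5 in a number of libraries equal to the size of the smaller group. Benjamini-Hochberg adjustment ran over all genes tested, and the limits were an adjusted p of 0.01 and a log2 fold change of 0.75. The labels call the samples replicates of a group, and p-values measure the spread between them. The fit was tested on simulated data. Samples with the same replicate number were compared and were not treated as pairs. Alternatives were quantile normalization, median centring, limma-voom on recovered reads, no filter and a filter of 1.5, limma without trend and robust, a fit with all groups of a table, a replicate block, an adjusted p of 0.05 with no minimum fold change, other limits of the rule, and each library left out in turn.

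The genes named are the 12 members with the largest and the 3 with the smallest 12 h difference, up to 5 called members in each direction of a comparison, up to 3 members of each list, the 6 highest in CPM, and genes nearest the limits. Duxf3 and members named for their timing or their level without Trim24 were chosen after their values were seen. Coordinates come from a GENCODE M21 annotation of GRCm38 and promoters from RefSeq. These may differ from the GENCODE M25 annotation that the authors counted on.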

Additional observations from a re-analysis of the deposited data

Results flagged for a closer look

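In 7 of 111 groups of 4 libraries of the RING-domain experiment tested, 1 library stood far from the others for a named gene. Chance gives about 1 in 20 such groups. In Trim24-degraded cells replicate 5 had 4.89 CPM of Katnal1, where the nearest library had 6.21 CPM, and replicate 7 had 110.8 CPM of Tfpi, where the nearest had 103.9 CPM. In Trim24-expressing cells replicate 5 had 2.09 CPM of Ubtfl1 (nearest 1.64 CPM), and replicate 7 had 15.0 CPM of Tex11 (nearest 15.95 CPM) and 0.936 CPM of Vav3 (nearest 0.312 CPM). Replicate 2 of ligase-null cells had 0.675 CPM of Pramef25 (nearest 0.350 CPM) and 0.0519 CPM of 3110040M04Rik (nearest 0.186 CPM).

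Zscan4d differed on Trim24 loss by −0.43 at 8 h of the time course, with every Trim24-degraded library below every Trim24-expressing one, and by 0.17 at 4 h of the RING-domain experiment, with every Trim24-degraded library above every Trim24-expressing one. Tle7 and Slc44a5 differed on Trim24 loss by −0.36 and −0.47 at 8 h of the time course, with every Trim24-degraded library below, and by 0.16 and 0.48 without doxorubicin, with every Trim24-degraded library above. Slc44a5 had 0.1801 ± 0.0197 CPM in Trim24-degraded and 0.0301 ± 0.0522 CPM in untreated cells there (SD, n = 3 each), which is few reads. None of these effects passed both limits. They come from separate tables, and the differences between them were not tested.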

How the results depend on the processing

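The rule gave 137 genes, 110 after median centring (59 of them among the 137), 116 after quantile normalization (44 shared), 197 on log2(CPM + 1) (122 shared), 371 with a flat limit of 0.5, and 121 to 144 with each library left out. With an adjusted p of 0.05 and no minimum fold change the members called were 29 at 4 h against 2 h, 124 at 12 h against 8 h, 31 on Trim24 loss at 8 h, 12 in wild-type cells, 10 on degradation in the RING-domain experiment, and 63 and 71 in ligase-null cells against Trim24-expressing and Trim24-degraded cells. At 8 h against 2 h quantile normalization gave 74 higher and 2 lower members and median centring 94 higher. Quantile normalization gave 1 at 4 h against 2 h, 2 on Trim24 loss at 8 h and 2 in wild-type cells, both lower there. Limma-voom gave 3 on Trim24 loss at 8 h, and no filter gave 0 in wild-type cells. With each library left out the counts were 2 to 4 at 4 h, 104 to 110 at 8 h and 136 to 136 at 12 h against 2 h, 76 to 83 at 12 h against 8 h, 1 to 4 on Trim24 loss at 8 h, 0 to 0 in wild-type cells, 0 to 0 without doxorubicin, 0 to 1 on degradation in the RING-domain experiment, and 30 to 33 and 30 to 34 in ligase-null cells. In wild-type cells this left 1 library in a group, which is then assumed to vary like the other group. Of 1254 alternative values of single genes, 1210 kept their call or lack of one, 9 lost a call and 35 gained one. For genes called in the main analysis 0 values changed direction, and direction was not checked for the others. The causes of these shifts were not tested.

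Replicate numbers were not taken as pairs. Correlations of deviations between same-numbered samples ran from −0.21 to 0.20, which with so few libraries a group cannot exclude shared handling. With a replicate block the calls were 3, 110 and 136 members at 4, 8 and 12 h against 2 h, 81 at 12 h against 8 h, 1 on Trim24 loss at 8 h, 1 in wild-type cells, and 0 on Trim24 loss both without doxorubicin and in the RING-domain experiment. The called members were the same. No paired analysis was possible for ligase-null cells because the groups share fewer than 2 replicate numbers. Depth limits genes under 1 CPM.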
